A study of Mus musculus with 6 samples.

Results

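Interleukin 33 and interleukin 18 act on group 2 innate lymphoid cells (ILC2s) through receptors of the IL-1 receptor family and the adaptor MyD88. The genes of this route described here, 10 in number, were read, by gene name, from the deposited comparison of knockout and control lung ILC2s: the receptors Il1rl1, Il1rap, Il18r1, Il18rap, Il1r1 and Il1r2, and the signalling genes Myd88, Irak4, Irak1 and Traf6. All 10 were found among the 39527 genes of the table, and all 10 were among the 14961 genes with an adjusted p, so that no member was lost to a filter on low values.

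The data are RNA sequencing of ILC2s sorted from mouse lung. The KO group comprised 3 samples of genotype R5/+LKB1f/f, in which both alleles of LKB1 (gene Stk11) are floxed, and the WT group 3 samples of genotype R5/+. All 6 samples were taken after 4 days of IL-33 challenge, and all carry the R5 allele, which the labels do not spell out, nor do they name the cells in which the floxed gene is deleted or the strain and age of the mice. Each sample pooled 3 to 4 mice, and no number of cells per pool is given. The study asks, by its title, about ILC2 exhaustion and lung cancer metastasis after loss of LKB1.

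IL-33 is an alarmin released by damaged epithelium. It binds ST2, the product of Il1rl1, which pairs with the shared chain IL-1RAcP, the product of Il1rap. IL-18 uses the pair encoded by Il18r1 and Il18rap, and IL-1 uses Il1r1 with Il1rap. Il1r2 encodes a decoy that binds IL-1 but lacks the cytoplasmic TIR domain through which the others signal. The paired TIR domains recruit MyD88, which assembles the kinases IRAK4 and IRAK1 and the ubiquitin ligase TRAF6, and these activate NF-kB and MAP kinases. ILC2s are known for high ST2 and for release of type 2 cytokines after this route is engaged.

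Per gene, the authors' deposited table lists the mean normalized count over the libraries of the fit, the log2 fold change, the standard error (SE) of that change, and an adjusted p. It does not state which genotype was the numerator, so each sign is given as deposited. For Stk11 itself the authors' deposited table gives a log2 fold change of -1.34 with an SE of 0.30 and an adjusted p of 0.000102557. If KO is the numerator, the reading under which the floxed gene is the lower one in KO, a negative sign means lower in KO; this rests on 1 gene. Under that reading Il1r2 and Myd88 would be lower and Il1rap higher in KO. A gene was called at an adjusted p below 0.05. Values of single samples were not used here, so that a spread between replicates enters only through the SE.

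Of the 10 genes, 3 were called: Il1r2 and Myd88 with a negative sign and Il1rap with a positive one. The decoy receptor Il1r2 had the largest difference, 2.56-fold, with the same sign as Stk11. Il1rl1, the IL-33 receptor itself, was positive without passing. In all, 3 of 10 (30%) were called, against 24.5% of all tested genes. By direction, 1 of 10 was positive against a background of 11.0%, and 2 of 10 were negative against 13.5%. The share called was thus near that of the table as a whole. The median log2 fold change of the 10 was 0.21, with 6 above 0 and 4 below, and that of all tested genes was -0.0056.

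**Figure D1:**
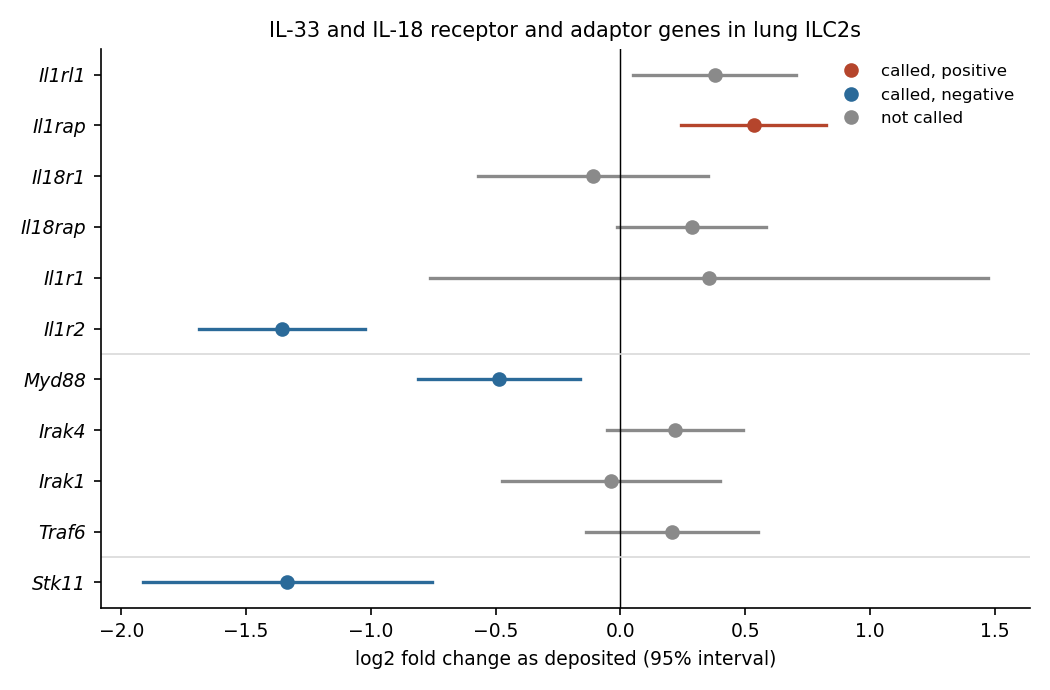
Log2 fold change as deposited (x axis) of the 6 receptor genes, the 4 signalling genes and Stk11 (y axis, parted by thin lines). Points are the deposited values and bars their 95% intervals from the standard error; red marks called positive, blue called negative and grey not called. Il1r2 stands at -1.35 and Il1rap at 0.53, and the intervals of Il18r1, Il18rap, Il1r1, Irak4, Irak1 and Traf6 cross 0.

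Il1rl1 is measured as 1 value per gene, although its transcripts encode different proteins. GENCODE M21 lists 5 transcripts on mm10 chromosome 1, 40429570 to 40465415, plus strand. Transcripts 201 and 202 encode 567 residues, the membrane receptor, and transcripts 203 and 205 encode 337 residues, the length of the soluble decoy form of ST2. The coding sequences are shared over their first 985 bases and then part. They are shown because a gene-level count adds both forms; lower case marks the last shared bases and capitals the first bases after the parting, for transcripts 202 and 205 in turn:
Il1rl1-202, membrane: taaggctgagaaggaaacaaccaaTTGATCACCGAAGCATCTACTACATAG
Il1rl1-205, soluble: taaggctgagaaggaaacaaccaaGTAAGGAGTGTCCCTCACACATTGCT
The capitals of the soluble form are its last 26 coding bases. Il1rap has the same arrangement on chromosome 16, 26581704 to 26730117, plus strand. Transcripts 201 and 202 encode 570 and 685 residues, and transcript 206 encodes 360 residues and parts from transcript 202 after 1051 coding bases:
Il1rap-202, membrane: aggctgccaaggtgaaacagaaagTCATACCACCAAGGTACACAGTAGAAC
Il1rap-206, soluble: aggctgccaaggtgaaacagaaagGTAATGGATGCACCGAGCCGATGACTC
Which form lay behind the values of Il1rl1 and Il1rap was not analysed here.

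Il1rl1 also has 2 RefSeq start sites with a promoter window, 10059 bases apart, while the GENCODE transcripts begin at further positions; the gene-level value adds all of them. The windows of 250 bases before to 50 after each RefSeq start (GRCm38.p6, the assembly of mm10, plus strand) are shown for that reason; capitals mark the GATA motif, searched as AGATAA on both strands, which GATA3 and its relatives recognise.
Il1rl1 upstream start, chr1:40429320-40429619: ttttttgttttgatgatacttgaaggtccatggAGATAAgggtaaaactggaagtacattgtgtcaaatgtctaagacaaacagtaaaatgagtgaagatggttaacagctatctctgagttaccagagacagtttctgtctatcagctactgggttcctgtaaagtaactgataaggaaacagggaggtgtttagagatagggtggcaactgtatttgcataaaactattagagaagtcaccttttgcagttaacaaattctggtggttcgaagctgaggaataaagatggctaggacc
Il1rl1 downstream start, chr1:40439379-40439678: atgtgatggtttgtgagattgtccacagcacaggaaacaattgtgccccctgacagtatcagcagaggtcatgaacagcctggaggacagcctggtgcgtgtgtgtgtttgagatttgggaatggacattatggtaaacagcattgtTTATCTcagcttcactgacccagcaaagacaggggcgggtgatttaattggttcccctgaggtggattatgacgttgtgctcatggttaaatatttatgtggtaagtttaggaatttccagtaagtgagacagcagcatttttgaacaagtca
Each Il1rl1 window held 1 match, on the plus strand at base 34 of the upstream window and on the minus strand, as TTATCT, at base 148 of the downstream one. Of 15 windows of the 10 genes, these 2 were the windows with AGATAA, and 11.2% of all 32851 promoter windows held it. Other forms of the GATA motif were not searched or marked. The related letters TGATAA also stand in the upstream Il1rl1 window and in that of Il18rap, and, as TTATCA, in that of Il1r2. A search on both strands for 1 form of the NF-kB motif, GGGANTTCC, found it in 0 of the 15 windows and in 1.68% of all windows. Other forms of the NF-kB motif were not searched, so these counts do not cover them. These matches describe letters in a window and no binding was measured.

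Among the receptors that signal, the 2 chains of the IL-33 receptor both had a positive sign. So had Il18rap and Il1r1, which were not called, while Il18r1 had a negative sign. Il1rl1 (ENSMUSG00000026069) stood at 0.38 ± 0.17 on the log2 scale (SE, as throughout) with a mean of 16936 normalized counts in the authors' deposited table, and had an unadjusted p of 0.024 and an adjusted p of 0.0838. Its 95% interval, 0.05 to 0.71, corresponds to a difference between 1.04-fold and 1.63-fold. At this SE a change of 0.42 would have been the smallest to pass, so the observed value was just short of passing. Il1rap (ENSMUSG00000022514), the chain that ST2 shares with the IL-1 receptor, was called at 0.53 ± 0.15 in the authors' deposited table, with an adjusted p of 0.00267. That is 1.45-fold, with an interval of 1.18-fold to 1.77-fold. The intervals of Il1rl1 and Il1rap overlap widely, and a test of the difference between genes was not made.

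The IL-18 receptor genes were not called. Il18rap, the accessory chain (ENSMUSG00000026068; chromosome 1, 40515362 to 40551705, plus strand), had 0.29 ± 0.15 at a mean of 2616 normalized counts in the authors' deposited table, with an adjusted p of 0.167. Il18r1, the ligand-binding chain (ENSMUSG00000026070; chromosome 1, 40465552 to 40500854, plus strand), had -0.11 ± 0.23 at 213.9 normalized counts in the authors' deposited table, with an adjusted p of 0.786. The interval of Il18r1, -0.57 to 0.35, covers a difference of up to 1.48-fold in the direction of its sign, so that differences of that size were not detectable. Il18r1 begins 136 bases after the annotated end of Il1rl1 on the same strand, and the level of Il1rl1 per kilobase was 55.3 times that of Il18r1. Whether reads that run on from Il1rl1 enter the value of Il18r1 was not tested.

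The 2 IL-1 receptors differed in level and in result. Il1r2, the decoy (ENSMUSG00000026073; chromosome 1, 40074079 to 40125231, plus strand), had -1.35 ± 0.17 at a mean of 4808 normalized counts in the authors' deposited table, with an adjusted p of 2.92e-13. Its interval ran from 2.03-fold to 3.22-fold. It was the 1 member that also passed a test against differences under 0.25 on the log2 scale (adjusted p = 1.37e-08), in which Il1rap and Myd88 had adjusted p-values of 0.337 and 0.632. Il1r1, the signalling receptor (ENSMUSG00000026072; chromosome 1, 40225080 to 40317257, plus strand), had 0.35 ± 0.57 at 40.03 normalized counts in the authors' deposited table, with an adjusted p of 0.709. At this low count only a change of at least 1.43 on the log2 scale could have passed. The intervals of the 2 genes, -1.69 to -1.02 for Il1r2 and -0.76 to 1.47 for Il1r1, did not overlap, although the difference between the genes was not itself tested.

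Il1r2 is also expressed by neutrophils, macrophages and regulatory T cells, and in bulk samples fewer cells of a type and less RNA per cell cannot be told apart. Neutrophil markers lay below 0 in 7 of 7 tested genes and 1, Ngp, was called. Macrophage and monocyte markers lay below 0 in 9 of 11 and 1, C1qa, was called. Their most abundant markers were not called, with S100a8 at -1.14 ± 0.90 and Lyz2 at -0.75 ± 0.80 in the authors' deposited table. No marker of either list was at 0, the lowest being Camp with a mean of 4.01 normalized counts. The summed means were 1090 for the neutrophil and 5218 for the macrophage list. The T cell list had 0 positive and 2 negative of 9 (0 positive also at an unadjusted p below 0.05), Ctla4 and Cd3g. Of these 9 genes 5 lay above 0 and 4 below, with a median of 0.08. Over all tested genes 11.0% were called positive and 13.5% negative. Foxp3, the factor that defines regulatory T cells, had 0.51 ± 0.66 at 22.4 normalized counts in the authors' deposited table. Ctla4, which regulatory T cells express in quantity, had -2.15 ± 0.26 in the authors' deposited table. The part of such cells in the Il1r2 value was not tested, and the summed level of a list in each genotype was not used here.

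The labelled cell type was checked against 15 ILC2 markers, of which 14 had an adjusted p. The most abundant was Gata3, the ILC2 lineage factor, with a mean of 44552 normalized counts, at 0.63 ± 0.16 in the authors' deposited table. Crlf2, the TSLP receptor chain, was the most significant at 0.90 ± 0.14 in the authors' deposited table. Of the 14, 57.1% were called, against 24.5% of all tested genes (11.0% positive and 13.5% negative). In all, 6 markers were positive and 2 negative, with a median of 0.42. The negative markers were Thy1 at -1.98 ± 0.75 and Klrg1 at -0.44 ± 0.12 in the authors' deposited table. Ptgdr2, a marker of many ILC2s, was near 0 at a mean of 0.871 normalized counts in the authors' deposited table. Mast cells and basophils also carry ST2: of their 9 markers 4 had an adjusted p, 1 above 0 and 3 below. The gene above 0, the histidine decarboxylase Hdc, was called (1.81 ± 0.22 in the authors' deposited table). The protease gene Cpa3 stood at -0.03 ± 0.23 with a mean of 1088 normalized counts in the authors' deposited table, whereas the proteases Mcpt4, Mcpt8, Tpsb2 and Cma1 were all below 4 normalized counts. The part of such cells in the Il1rl1 value was not tested. NK cell and group 1 ILC markers, which come with IL-18 receptors, had 0 positive and 1 negative of 5 tested (Gzma, -3.94 ± 0.93 in the authors' deposited table), with 4 above 0, 1 below and a median of 0.36. At an unadjusted p below 0.05 the positive count was 0 as well. Of 3 tested group 3 ILC markers, 2 lay above 0 and 1 below, with a median of 0.12. The 1 below, the cytokine gene Il17a, was called negative (-1.25 ± 0.43 in the authors' deposited table). At an unadjusted p below 0.05, 1 of them was positive and 1 negative. B cell markers had 2 negative of 5 (Ighm and Cd79b, at -1.56 and -0.88) and stromal, epithelial and endothelial ones 1 of 7 (Pdgfrb, -1.63, with Sftpc at -1.18 not called, in the authors' deposited table).

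The adaptor that the signalling receptors share was called with the sign opposite to Il1rap. Myd88 (ENSMUSG00000032508; chromosome 9, 119335934 to 119341411, minus strand) had -0.49 ± 0.17 at a mean of 1146 normalized counts in the authors' deposited table, with an adjusted p of 0.0174. The difference was 1.40-fold with an interval of 1.12-fold to 1.75-fold. After a trend of fold change on exonic length and GC content was removed from all protein-coding genes, Myd88 had -0.38 and an adjusted p of 0.0835. Its exons share 290 bases, 11.3% of its exonic length, with Acaa1a on the opposite strand, which had -0.02 ± 0.11 in the authors' deposited table; how strand was handled is not given, and the effect of these shared bases was not tested.

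Downstream of MyD88, none of the 3 core enzymes was called, and 0 of the 3 had an unadjusted p below 0.05 in the deposited test. Irak4, the kinase that MyD88 binds (ENSMUSG00000059883; chromosome 15, 94543643 to 94581815, plus strand), had 0.22 ± 0.14 in the authors' deposited table, with an adjusted p of 0.258. It shares 395 exonic bases, 7.87%, with Twf1 on the opposite strand, which had -0.26 ± 0.16 in the authors' deposited table. Irak1, which IRAK4 phosphorylates (ENSMUSG00000031392; chromosome X, 74013914 to 74023918, minus strand), had -0.04 ± 0.22 in the authors' deposited table, with an adjusted p of 0.929; centring on the most abundant genes put it at 0.00034. Traf6, the ubiquitin ligase (ENSMUSG00000027164; chromosome 2, 101678429 to 101701669, plus strand), had 0.21 ± 0.18 in the authors' deposited table, with an adjusted p of 0.430. Their intervals, -0.05 to 0.49 for Irak4, -0.47 to 0.40 for Irak1 and -0.14 to 0.55 for Traf6, leave room for differences of up to 1.41-fold, 1.39-fold and 1.46-fold in the direction of their signs.

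Levels of the 10 genes spanned a wide range when set per kilobase of annotated exons. Il1r2 and Il1rl1 stood highest, at 2520 and 2457 normalized counts per kilobase, above 97.7% and 97.5% of 13002 tested protein-coding genes. Myd88 followed at 445.1 and Il18rap at 387.4 normalized counts per kilobase. Irak1, Traf6 and Irak4 lay close together, at 228.0, 211.9 and 172.2. Il1rap and Il18r1, at 48.6 and 44.4 normalized counts per kilobase, were below the protein-coding median of 80.8. Il1r1 was lowest at 6.29, above 12.8% of protein-coding genes, so that the decoy's level per kilobase was 401 times that of the signalling IL-1 receptor. Each level is a mean over all libraries of the fit, so that the order of the genes within a genotype, Il1r2 and Il1rl1 included, was not analysed here. No spread over samples is available for these means, so neighbours in this order cannot be told apart by a test. Per kilobase of the longest transcript Il1rap stood at 122.2, above the protein-coding median of 109.1 on that scale; its annotated exons add up to 11360 bases and its longest transcript to 4520.

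**Figure D2:**
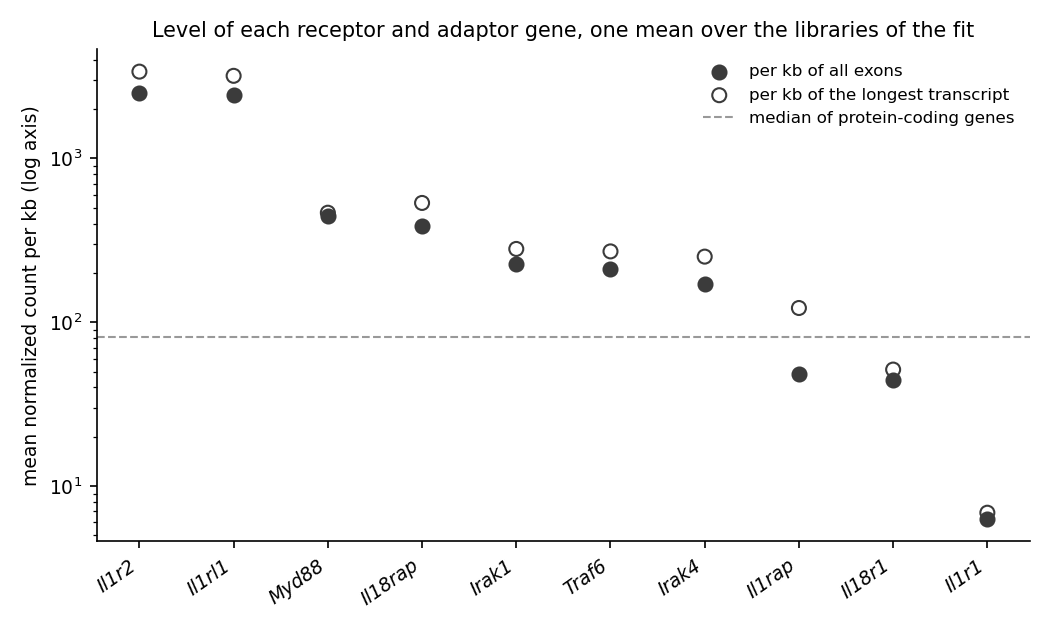
Mean normalized count per kilobase (y axis, log scale) of the 10 genes, ordered from high to low (x axis). Filled points use the length of all exons and open points that of the longest transcript; the dashed line is the median of tested protein-coding genes per kilobase of all exons, 80.8, and applies to the filled points. Il1r2 (2520) and Il1rl1 (2457) stand above the rest and Il1r1 (6.29) below.

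In the IL-18 receptor pair the accessory chain exceeded the ligand-binding chain 8.73 times per kilobase. In the IL-33 receptor pair the order was the other way: the ligand-binding chain Il1rl1 stood 50.5 times above the accessory chain Il1rap per kilobase of exons, and 26.1 times per kilobase of the longest transcript.

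Of the 10 genes, 5 lie side by side, a fact the choice by name did not use. The run from Il1r2 to Il18rap covers 477627 bases of chromosome 1 (40074079 to 40551705) and holds 6 protein-coding genes in the same orientation, the sixth being Il1rl2, the IL-36 receptor. Il1rl2 had 0.20 ± 0.34 in the authors' deposited table and was not called. Of the 12 protein-coding genes within 300 kb of the run, 8 had an adjusted p and 1, Il1r2, was called. The nearest tested gene on its other side, the kinase gene Map4k4, had -0.27 ± 0.16, and Slc9a2, a sodium-proton exchanger beyond Il18rap, 0.45 ± 0.69 in the authors' deposited table. The value of Il1r2 was therefore not shared by the tested genes beside it: the intervals of the other 7 all lay above that of Il1r2.

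**Figure D3:**
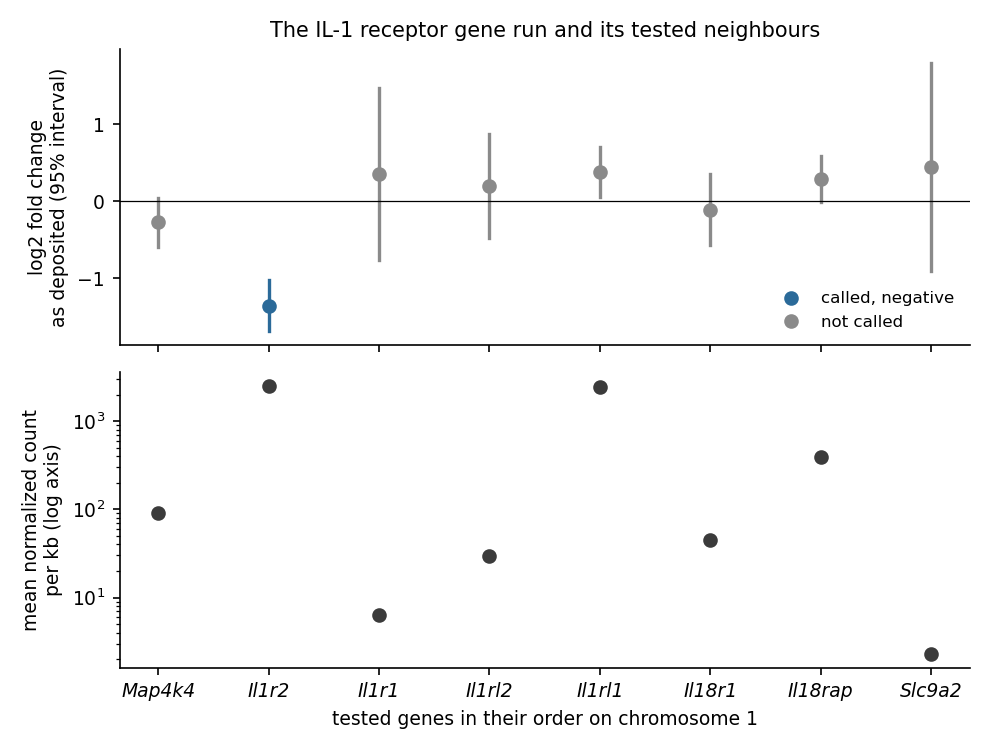
Tested genes of the run and its surroundings in chromosome order (x axis), with the deposited log2 fold change and 95% interval above and the mean normalized count per kilobase (log axis) below. Il1r2, in blue, is the 1 called gene at -1.35, and Il1rl1 and Il1r2 are the most abundant per kilobase.

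The other genes of the pathway were read from 7 lists. The 12 negative regulators of MyD88 and TRAF6 signalling had the most calls in 1 direction: 7 were positive and 0 negative, against backgrounds of 11.0% and 13.5%, with a median of 0.45 beside -0.0056 over all tested genes. At an unadjusted p below 0.05, 9 were positive and 0 negative. Usp18, a peptidase better known from interferon responses, had 1.62 ± 0.22, and Tnfaip3, which encodes the ubiquitin-editing enzyme A20, had 0.99 ± 0.17 in the authors' deposited table. Nlrc3, an inhibitor of TRAF6, had 0.65 ± 0.16 and Tnip2, an A20-binding protein, 0.53 ± 0.16 in the authors' deposited table. Cyld, Otud7b and Dok2 were positive too. At an adjusted p below 0.01, 4 of the 7 passed. These counts depend on how the list was drawn up, which was done with earlier results of these data known. Irak3, called with a negative sign and described next, and Sigirr, an inhibitory receptor that was not called, were in other lists.

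Irak3, the kinase-dead relative of IRAK1 that restrains the same step in macrophages, had the opposite sign, -1.04 ± 0.21 in the authors' deposited table. It was in the list of other MyD88 adaptors and kinases, of which 0 were positive and 3 negative (18.8%) of 16 tested (median -0.13), near the background of 13.5% negative. At an unadjusted p below 0.05 the counts were 0 and 5. The other 2 were Ecsit, a TRAF6 partner, at -0.57 ± 0.19 and Ube2n, the ubiquitin-conjugating enzyme that works with TRAF6, at -0.36 ± 0.14 in the authors' deposited table. After removal of the length and GC trend 1 gene of this list was negative. Irak2, another member of the IRAK family, did not pass at 0.26 ± 0.14 in the authors' deposited table.

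The IKK and MAP kinase list had 3 positive and 0 negative of 13 (median 0.14), and 5 and 0 at an unadjusted p below 0.05. The share called, 23.1%, was near the 24.5% of all tested genes. The kinase JNK1, from Mapk8, had 0.97 ± 0.25, and the IKK subunits Ikbkb and Ikbkg had 0.40 ± 0.11 and 0.43 ± 0.15 in the authors' deposited table. After removal of the length and GC trend 1 gene of this list was positive. Of 15 tested genes known to be induced by IL-33 or MyD88 in lymphocytes, 53.3% were called, against 24.5% of all tested genes. By direction, 6 were positive and 2 negative (median 0.24), beside backgrounds of 11.0% and 13.5%. Among the positive ones, 3 encode IkB proteins: Nfkbiz had 1.09 ± 0.18, Nfkbid 1.47 ± 0.26 and Nfkbia 0.48 ± 0.16 in the authors' deposited table. The chemokine genes Cxcl2 and Ccl1 and the cytokine gene Tnfsf11 were the other positive genes, with Cxcl2 at 1.94 ± 0.25 in the authors' deposited table. The negative genes were the cytokines Il13 (-1.06 ± 0.18) and Il6 (-0.43 ± 0.14) in the authors' deposited table. Il5 stood at 0.12 ± 0.22 in the authors' deposited table and did not pass. At an adjusted p below 0.01, 4 genes of this list were positive and 1 negative. With the length and GC trend removed, 8 were positive and 1 negative.

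Of 12 ligands and soluble antagonists, 7 were in the table and 6 had an adjusted p, with 5 below 0 and not called. The 1 call was Il18bp, which encodes a secreted protein that binds and blocks IL-18: it had 1.20 ± 0.36 at a mean of 79.8 normalized counts in the authors' deposited table, 2.29-fold with an interval of 1.41-fold to 3.75-fold. Il33 and Il18 themselves had -1.51 ± 1.01 and -0.66 ± 0.92 in the authors' deposited table, with errors too wide to place them. Of the other IL-1 receptor family, 2 of 4 had an adjusted p and 0 were called in the deposited test (1 at an unadjusted p below 0.05). The most abundant was Sigirr, an inhibitory receptor of the family, with 0.33 ± 0.16 in the authors' deposited table and an adjusted p of 0.128.

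**Figure D4:**
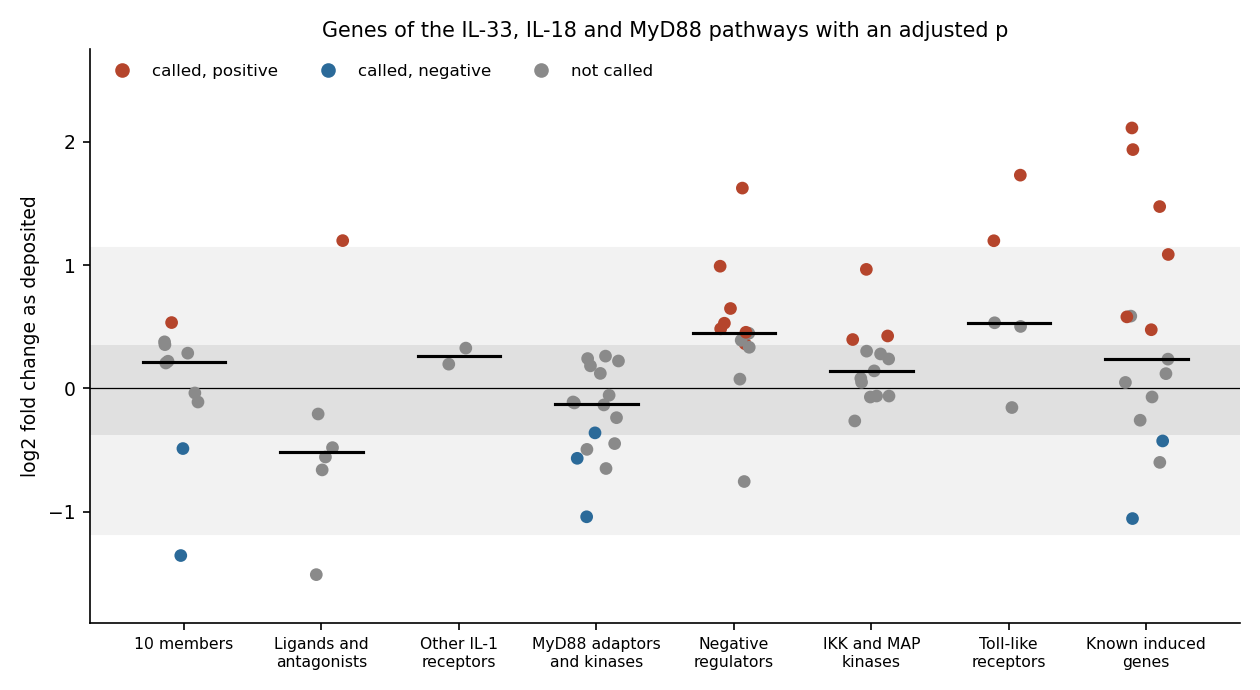
Deposited log2 fold change (y axis) of each tested gene of the 10 members and the 7 pathway lists (x axis). Red marks called positive, blue called negative and grey not called; black lines are medians, and the grey bands hold the middle 50% and 90% of all tested genes. The negative regulators have 7 called positive and 0 called negative, with a median of 0.45. These counts depend on how the list was drawn up, and Irak3 and Sigirr are in other lists.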

How the data were processed

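RNA sequencing of 6 samples (3 KO, 3 WT) was deposited as 1 table of the authors' comparison. Per the submitters' processing notes, the tools were HISAT2 and Cufflinks and the build mm10, without versions. Not given in the sources used here were the counting tool, the annotation, filters and strand handling. Per the file headers, the authors gave a mean normalized count per gene, that is, a signal averaged across libraries that are not named. Per the file headers, each gene also has the authors' log2 fold change, the standard error of it, a score (the ratio of both) and p-values before and after adjustment. The column names are those of DESeq2's results table, per the file headers. Per-sample values in 12 more columns (6 names) matched no label and were not used, so the planned fit on samples was replaced by the deposited comparison, and sample depth was not used.

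Gene calls used an adjusted p below 0.05 across all 14961 genes, without a new fit. Intervals at 95% are the fold change and its standard error under a normal distribution. Lengths, coordinates and overlaps came from GENCODE M21 (99.3% of identifiers found), GC content from the longest transcript, and promoter windows from RefSeq (GRCm38.p6; all 10 genes matched). The lowess trends (span 0.3) on length and then GC content were fitted over 12996 protein-coding genes. Steps were tested on simulated data. The tools were statsmodels 0.14.6, scipy 1.17.1, numpy 2.4.6, pandas 2.3.3 and matplotlib 3.10.9 under Python 3.11.15.

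The members and lists were chosen with earlier results of these data known. Named genes were the 10 members, Stk11, up to 4 called genes per pathway list by smallest adjusted p (the most abundant in a list with none), the most abundant and most significant marker per list, and tested neighbours on chromosome 1. Other names (Irak2, Foxp3, Il33, Il18 and further list members) were chosen after their values were seen. A gene that the rule selects is not reported here. Pools from 3 to 4 mice are the replicates, and what each p-value measures rests on the authors' fit.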

Additional observations from a re-analysis of the deposited data

How the results depend on the processing

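The 7 alternatives gave 69 values for the 10 members, of which 63 kept their sign and their side of the threshold. Only centring and removal of the length and GC trend changed the fold changes, so elsewhere no sign could move. At an adjusted p below 0.01 and in the test against differences under 0.25, no uncalled gene could gain a call. Much of this count was therefore fixed beforehand. Il1r2 stayed called in all 7, at -1.32 after centring, -1.15 after trend removal and -1.35 otherwise. At an adjusted p below 0.01, 1 member was called negative (Il1r2), Myd88 losing its call, 1016 genes of the table were positive and 1347 negative, and the 7 pathway lists together had 12 positive and 2 negative calls in place of 19 and 5. At an adjusted p below 0.1, 2 members were called positive, Il1rl1 joining Il1rap. In the test against differences under 0.25, 0 members were called positive (0 also at an unadjusted p below 0.05) and 1 negative, with Il1rap at an adjusted p of 0.337 and Myd88 at 0.632, and 522 genes of the table were positive and 713 negative. With the length and GC trend removed, 1 member was called negative, and the lists together had 18 positive and 2 negative calls. The median fold change before removal was -0.24 among the shortest 25% of genes and 0.15 among the longest 25%. Centring on the most abundant 25% of genes, a shift of 0.04, turned the sign of Irak1 to 0.00034. The cause of these changes, beyond the thresholds themselves, was not tested. Il1rl1 stood at adjusted p values between 0.0527 and 1 across the alternatives.

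No paired analysis was possible because the deposited comparison holds 1 value per gene and the per-sample columns matched no label. For the same reason leaving out samples, a count-based normalization and another pseudocount were not run, and whether 1 sample carries the value of Il1r2, Il1rap or Myd88 was not tested. At a mean of 40.03 normalized counts, the depth of Il1r1 limits its value most among the 10.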

Other observations

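Toll-like receptors also signal through MyD88. Of 11 listed genes, 5 had an adjusted p, and 2 were positive and 0 negative (2 and 0 at an unadjusted p below 0.05), beside backgrounds of 11.0% and 13.5% of tested genes. Tlr4, the lipopolysaccharide receptor, stood at 1.73 ± 0.37 with a mean level of 178.8 normalized counts, and Tlr2, which senses lipoproteins, 1.20 ± 0.39 at 205.3 in the authors' deposited table. Myeloid cells also express both genes. Myeloid markers lay below 0 in 9 of 11 (macrophage and monocyte) and 7 of 7 (neutrophil) tested genes, with 1 called in each list, and their part in the values of Tlr4 and Tlr2 was not tested. Tlr1 and Tlr12 did not pass, at 0.53 ± 0.27 and -0.15 ± 0.26 in the authors' deposited table.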
